A study of Macaca mulatta with 20 samples.

Results

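The genes described here code for the protein machinery that removes introns from RNA and for the RNA helicases of the DEAD and DEAH box families. They were chosen by symbol: all probes named SF3A, SF3B, SRSF, HNRNP, SNRP, PRPF, DDX, DHX, U2AF, LSM or RBM with the further characters of the family, and AQR. This gave 107 probes for 82 genes, among 7303 probes on the arrays. No SF3A gene was among them, so the SF3 complex is represented by SF3B1, SF3B2 and SF3B6.

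RNA came from blood mononuclear cells of 5 rhesus macaques, adult females that lived in 5 social groups and held dominance ranks 1 (high) to 5 (low), with 1 animal at each rank. The blood cells of each animal were sorted into monocytes (CD14), helper T cells (CD4), cytotoxic T cells (CD8) and B cells (CD20), and each population was hybridised to 1 Illumina array. The cytotoxic T cell and B cell arrays of the rank 4 animal were left out, which left 5 monocyte, 5 helper T cell, 4 cytotoxic T cell and 4 B cell arrays. Since each rank is 1 animal, the effects of rank, of the single animal and of its group cannot be told apart, and p-values cover only the spread between these samples.

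Introns are removed by the spliceosome, which assembles on each intron from small nuclear ribonucleoproteins (snRNPs) and many further proteins. SR proteins and hnRNP proteins bind the RNA around splice sites and help to set which sites are used, and helicases of the DEAD and DEAH box families remodel RNA and RNA-protein contacts at each step. Relatives of these helicases also act in ribosome assembly, translation and the sensing of viral RNA, and blood cells rely on regulated splicing when they are activated.

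A level below is the deposited log value of a probe, used as log2, and a difference is a difference of such levels. The log base was not given in the sources used here, and the values do not show whether they are log2 or a variance-stabilised scale, on which dim probes differ less. The probes were designed for human transcripts, so a signal also reflects how well the probe matches the macaque transcript. Cell types were compared probe by probe, no gene's level was set against another's, and the number of arrays limits the precision of every value. Where a gene had several probes, the one with the highest signal, called its brightest, stands for it. Differences come from a limma fit that takes out the animal, so they can deviate slightly from the difference of plain group means. A probe was called at a Benjamini-Hochberg adjusted p under 0.05 over all 7303 probes. In bulk samples such as these, a larger share of cells with the transcript and more transcript per cell cannot be told apart.

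Monocyte markers averaged 12.69 to 13.59 in monocyte arrays and 7.92 to 8.32 in lymphocyte arrays, T cell markers 11.06 to 11.97 in T cell arrays of either kind and 7.76 to 7.81 in monocytes, and B cell markers 10.76 to 11.59 in B cells and 7.84 to 8.01 elsewhere. The 2 cytotoxic T cell markers averaged 11.38 to 11.86 in cytotoxic T cells, 8.12 to 9.62 in helper T cells, 7.94 to 8.40 in monocytes and 8.04 to 9.42 in B cells. The 1 helper T cell marker read 8.22 to 8.85 in helper T cells, 7.58 to 7.69 in cytotoxic T cells, 7.81 to 8.30 in monocytes and 7.59 to 7.79 in B cells, so it separated the T cell arrays from each other but overlapped between helper T cells and monocytes. The 4 NK cell markers averaged 10.12 to 11.02 in cytotoxic T cells, 8.31 to 9.64 in helper T cells, 8.39 to 8.74 in monocytes and 7.91 to 7.99 in B cells. The 2 arrays left out correlated with each other at 0.876 over all probes, and with the other 18 at only 0.148 to 0.193, against a median of 0.955 between arrays of 1 type. Over the splicing and helicase probes alone they correlated with the other 18 at 0.433 to 0.551. Of the 107 probes, 84 lay outside the range of the kept arrays in the left-out cytotoxic T cell array, 59 below it and 25 above it, and 91 did so in the left-out B cell array, 56 below it and 35 above it.

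Most of the splicing and helicase genes differed between cell types, with a share called and a median range close to those of the whole array. The range of the 4 cell type means had a median of 0.40 log2 over the 107 probes, and 0.41 over all probes. It exceeded 1 log2 in 8 of the 107 probes (7.48%), against 19.2% of all probes, and its maximum was 1.53 log2, against 6.51 log2 over all probes. An F test over the 4 types (limma, adjusted) called 77 of the 107 probes (72%) and 63 of the 82 genes, beside 67.4% of all probes. With only probes whose mean was above the median of all values in the fit, it called 64 of 84 (76.2%), beside 82.4% of all such probes.

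Monocytes stood apart from the lymphocytes. Averaged over the 82 genes, the level was 9.42 to 9.47 in the 5 monocyte arrays, against 9.70 to 9.82 for helper T cells, 9.69 to 9.77 for cytotoxic T cells and 9.71 to 9.87 for B cells, so the monocyte arrays lay below all 13 lymphocyte arrays. Of the 82 genes, 57 (69.5%) had their lowest mean in monocytes, a count that was not made for the whole array. In monocytes minus the mean of the 3 lymphocyte types, limma called 77 of the 107 probes, 65 lower and 12 higher. Over all probes the share called was 65.2%, with 36.5% lower and 28.7% higher, whereas 60.7% of the splicing and helicase probes were lower and 11.2% higher. By gene, 53 of the 82 were lower in monocytes and 10 higher, and the median difference over the 107 probes was -0.27 log2, against -0.01 over all probes.

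Over the whole array, probes with a signal above the median of all values were more often lower in monocytes than the others, and 84 of the 107 (78.5%) were such probes, against 52.2% of all. Among them, 57 of 84 splicing and helicase probes (67.9%) were lower and 10 (11.9%) higher, beside 48.3% lower and 29.4% higher of all such probes. Among those at or below the median, 8 of 23 (34.8%) were lower and 2 (8.7%) higher, beside 23.6% lower and 28% higher. All 5 monocyte arrays lay below all 13 lymphocyte arrays for 21 of the 107 probes (19.6%), against 11.9% of all probes, and above them for 2 (1.87%), against 10.2%. With the 2 left-out arrays returned to the fit, the count fell to 35 of 107 (32.7%), with 31 lower and 4 higher, and the share of all probes called in that fit was 38.7%. Immediate-early genes, which respond fast to handling and stimulation, were also set apart in monocytes: the mean of 9 such genes was 10.62 to 11.51 there and 8.81 to 10.46 in the lymphocyte arrays, and its part in the result was not tested. The same holds for 2 granulocyte markers, at 12.86 to 13.94 in monocytes and 7.79 to 8.07 in lymphocytes, while 4 erythroid genes read 10.20 to 12.25 in monocytes and 10.09 to 12.20 in lymphocytes.

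**Figure D1:**
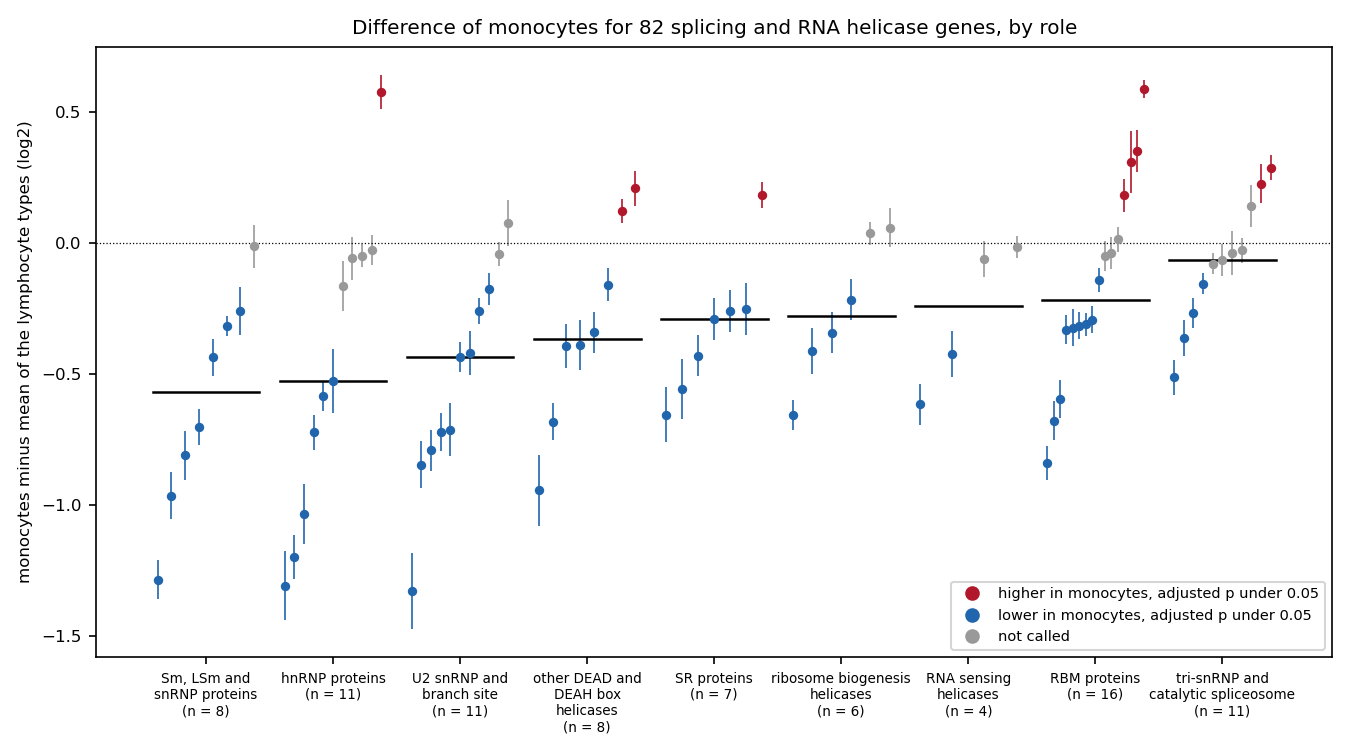
Difference in log2 level of monocytes minus the mean of the 3 lymphocyte types (vertical axis) for the brightest probe of each of the 82 genes, grouped by role along the horizontal axis. Points are fitted differences, bars are standard errors, black lines are medians of a role, and colour marks genes called higher or lower at an adjusted p under 0.05. The median lies at -0.57 for Sm, LSm and snRNP proteins and at -0.07 for the tri-snRNP and catalytic spliceosome.

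Among 11 genes that act with the U2 snRNP and at the branch site, 9 were lower in monocytes, 0 higher and 2 not called, with a median difference of -0.44 log2. Beside this and every count by role or family below stand the shares over all probes, 36.5% lower and 28.7% higher. Over probes above the median of all values those shares were 48.3% and 29.4%. Whether a role or family differs from them was not tested. SF3B1, the scaffold of the complex that holds the branch site, had levels of 10.43, 10.81, 10.53, 10.65 and 10.54 in monocytes of ranks 1 to 5, against 11.32, 11.98 and 12.48 as the lowest, median and highest of the 13 lymphocyte arrays. The groups did not overlap, and the difference was -1.33 ± 0.15 log2 (SE), or 2.51-fold lower in monocytes (limma, adjusted p = 3.02e-06). These values are from the brightest of its 3 probes, and the other 2 were not called (given below). SF3B2, another subunit of that complex, had levels of 9.83, 9.85, 10.26, 9.71 and 10.04 in monocytes, against 10.50, 10.77 and 11.06 as the lowest, median and highest lymphocyte arrays. These groups did not overlap either (-0.79 ± 0.08 log2, adjusted p = 1.09e-06).

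The RNA helicase DDX39B, which also serves mRNA export, was lower in monocytes by 0.85 ± 0.09 log2, with 10.56 to 11.09 in monocytes and 11.24 to 11.93 in lymphocytes. RBM5, a regulator of alternative splicing, differed by -0.72 ± 0.07 log2, with 9.35 to 9.58 in monocytes and 9.94 to 10.52 in lymphocytes. Neither gene's groups overlapped. DHX15, a helicase that takes spliceosomes apart, had 10.33 to 10.86 in monocytes and 10.85 to 12.03 in lymphocytes, which overlapped at their ends (-0.71 ± 0.10 log2, limma, adjusted p = 3.43e-05).

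SF3B6, the small subunit that contacts the branch site, differed far less, at -0.17 ± 0.06 log2, with 11.82 to 12.03 in monocytes and 11.85 to 12.39 in lymphocytes. Its ranges overlapped widely, and its adjusted p of 0.0231 rose to 0.0862 with arrays scaled on their brighter probes. U2AF2, which binds the polypyrimidine tract before the intron's end, was lower in monocytes by 0.42 ± 0.08 log2. It was highest in B cells, and it was not called between helper T cells and monocytes. U2AF1L4 (-0.04 ± 0.05 log2), a relative of its partner subunit, and SNRPB2 (0.08 ± 0.09 log2), a protein of the U2 snRNP, were not called.

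Of 8 Sm, LSm and other snRNP proteins, 7 were lower in monocytes, 0 higher and 1 not called, with a median of -0.57 log2. LSM14A, an LSm-domain protein of cytoplasmic P-bodies, had levels of 10.90, 10.80, 10.94, 10.97 and 10.63 in monocytes of ranks 1 to 5, against 11.38, 12.22 and 12.51 as the lowest, median and highest lymphocyte arrays. The groups were separate, the difference was -1.29 ± 0.07 log2 (2.44-fold lower), and the adjusted p was 6.16e-09 (limma). SNRPB, a core Sm protein, had levels of 10.71, 10.72, 10.85, 10.57 and 10.54 in monocytes, against 11.18, 11.61 and 12.18 in the lymphocyte arrays (lowest, median and highest).

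SNRPB thus had no overlap between monocytes and lymphocytes (-0.97 ± 0.09 log2, limma, adjusted p = 5.65e-07), and its other probe was lower as well (-0.66 log2). The Sm protein SNRPF ranged from 11.16 to 11.54 in monocytes and from 11.61 to 12.41 in lymphocytes, again apart (-0.70 ± 0.07 log2). SNRPN, a close relative of SNRPB whose probes may not separate the pair, had 8.74 to 9.22 in monocytes and 9.10 to 10.43 in lymphocytes (-0.81 ± 0.09 log2). LSM1, of the complex that starts mRNA decay (-0.44 ± 0.07 log2), SNRPA, of the U1 snRNP (-0.32 ± 0.04 log2), and the Sm protein SNRPD3 (-0.26 ± 0.09 log2) were also called lower. LSM10, which belongs to the U7 snRNP of histone mRNA processing, was not called (-0.01 ± 0.08 log2).

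The genes of the tri-snRNP and the catalytic spliceosome stood closest to equality. Of 11, 4 were lower in monocytes, 2 higher and 5 not called, with a median of -0.07 log2, beside 36.5% lower and 28.7% higher of all probes. PRPF4, a protein of the U4/U6 snRNP (-0.51 ± 0.07 log2), and the helicases DHX16 (-0.36 ± 0.07 log2) and DHX38 (-0.27 ± 0.06 log2), which act around the catalytic steps, were lower. PRPF19, the ubiquitin ligase of the complex that carries its name, was lower by 0.16 ± 0.04 log2.

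PRPF6, a protein that bridges the tri-snRNP, had levels of 8.22 to 8.51 in monocytes and 8.18 to 8.66 in lymphocytes (-0.07 ± 0.06 log2, not called). PRPF31, which joins the tri-snRNP together, had 8.61 to 9.30 in monocytes and 8.63 to 9.44 in lymphocytes (-0.03 ± 0.05 log2, not called). The ranges of both genes overlapped almost wholly. The intron-binding helicase AQR had monocyte, helper T, cytotoxic T and B cell means of 9.66 ± 0.19, 9.70 ± 0.41, 9.57 ± 0.45 and 9.76 ± 0.53 (SD, n = 5, 5, 4 and 4), and was not called (-0.04 ± 0.08 log2).

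PRPF3, another U4/U6 protein, was not called (0.14 ± 0.08 log2, adjusted p = 0.144 by limma), though without the rank 3 animal the difference was 0.24 log2 with an adjusted p of 0.0178. RBM22, which contacts RNA in the catalytic core, had levels of 11.90, 12.05, 11.78, 11.92 and 11.51 in monocytes, against 11.08, 11.46 and 12.36 as the lowest, median and highest lymphocyte arrays. The groups overlapped, since 2 B cell arrays lay above all monocyte arrays, and monocytes were higher by 0.23 ± 0.07 log2 (limma, adjusted p = 0.0154). Without the rank 5 animal that adjusted p was 0.0863. DDX41, a helicase found with late spliceosomes and also described as a DNA sensor, had levels of 8.42, 8.48, 9.04, 8.53 and 8.92 in monocytes and 8.14 to 8.74 in lymphocytes (0.29 ± 0.05 log2 higher). Its sign turned with all 20 arrays, at -0.07 log2, where the 2 left-out arrays read 10.67 and 11.25.

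**Figure D2:**
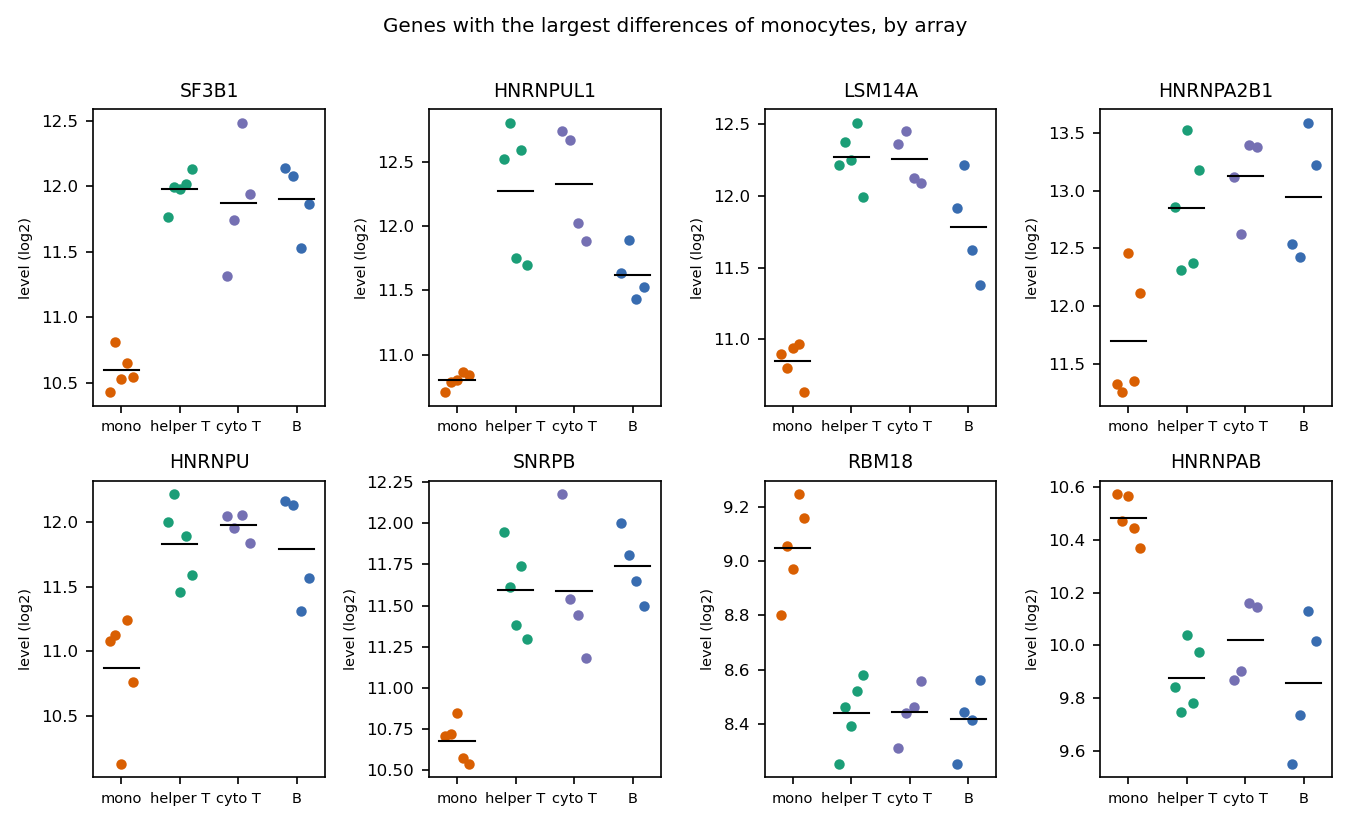
Level (log2, vertical axis) in each of the 18 arrays for the brightest probe of 8 genes, with monocytes left of helper T, cytotoxic T and B cells. Each point is 1 array, moved sideways so that points do not hide each other, and each line is the mean of a cell type. All monocyte points lie below all lymphocyte points for SF3B1, HNRNPUL1, LSM14A, HNRNPU and SNRPB, above them for RBM18 and HNRNPAB, and overlap them for HNRNPA2B1.

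All 7 SR proteins, which bind exonic enhancers and recruit the splicing machinery, were called. Of them, 6 were lower in monocytes and 1 higher, with a median of -0.29 log2. Against single types, 5 were called lower in monocytes than in helper T cells, 2 than in cytotoxic T cells and 6 than in B cells. SRSF4 differed by -0.66 ± 0.10 log2, SRSF2 by -0.43 ± 0.08 log2, SRSF8 by -0.29 ± 0.08 log2, SRSF5 by -0.26 ± 0.08 log2 and SRSF7 by -0.25 ± 0.10 log2. The probe of SRSF8 may not separate it from SRSF2, its close relative. SRSF6, a regulator of alternative exons, ranged from 12.76 to 13.20 in monocytes and from 12.88 to 13.98 in lymphocytes, with overlap (-0.56 ± 0.11 log2, limma, adjusted p = 0.00069). SRSF3, the smallest SR protein, was the exception, at 0.18 ± 0.05 log2 higher, and among single types it was called higher only against B cells. The call of SRSF5 was lost without the rank 2 animal (adjusted p = 0.0589), whereas its sign was kept.

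The hnRNP proteins coat nascent RNA, and 6 of 11 were lower in monocytes, 1 higher and 4 not called, with a median of -0.53 log2. HNRNPUL1, a nuclear protein tied to RNA transport and the DNA damage response, had levels of 10.71, 10.78, 10.80, 10.87 and 10.84 in monocytes of ranks 1 to 5, against 11.43, 11.90 and 12.81 as the lowest, median and highest lymphocyte arrays. No array overlapped, and monocytes were lower by 1.31 ± 0.13 log2 (2.48-fold, limma, adjusted p = 1.28e-06). HNRNPU, a nuclear scaffold protein, had levels of 11.08, 11.13, 10.13, 11.24 and 10.76 in monocytes, against 11.31, 11.96 and 12.22 as the lowest, median and highest lymphocyte arrays. The highest monocyte array lay just under the lowest lymphocyte array (-1.04 ± 0.11 log2, limma, adjusted p = 3.16e-06).

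HNRNPA2B1, which sorts and processes many RNAs, had levels of 11.33, 11.26, 12.46, 11.36 and 12.12 in monocytes, against 12.32, 13.11 and 13.59 as the lowest, median and highest lymphocyte arrays. The groups overlapped, with ranks 3 and 5 highest in every type, and monocytes were below the mean of the animal's own lymphocytes in 5 of 5 animals (-1.20 ± 0.08 log2, limma, adjusted p = 3.88e-08). That is the brightest of 4 probes of HNRNPA2B1, and the other 3 were not called. HNRNPM, a regulator of alternative exons, ranged from 11.74 to 12.02 in monocytes and from 12.33 to 12.72 in lymphocytes (-0.72 ± 0.07 log2). Of its 4 probes, 2 were called lower and 2 were not called. HNRNPD, which binds AU-rich elements and steers mRNA decay, ranged from 12.48 to 12.67 in monocytes and from 12.95 to 13.35 in lymphocytes (-0.59 ± 0.06 log2), and neither it nor HNRNPM overlapped between the groups.

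HNRNPAB, of the same subfamily as HNRNPD, went the other way. Its levels were 10.57, 10.47, 10.57, 10.44 and 10.37 in monocytes, against 9.55, 9.91 and 10.16 as the lowest, median and highest lymphocyte arrays, with no overlap. Monocytes were higher by 0.58 ± 0.07 log2 (1.49-fold, limma, adjusted p = 4.47e-06). HNRNPK (-0.06 ± 0.08 log2), HNRNPA1 (-0.05 ± 0.04 log2), HNRNPLL (-0.03 ± 0.06 log2) and HNRNPDL (-0.16 ± 0.10 log2) were not called, and the probe of HNRNPA1, which has many processed copies in primate genomes, may read more than that gene.

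Of 16 further RBM proteins, a set named for an RNA recognition motif, 9 were lower in monocytes, 4 higher and 3 not called. Their median was -0.22 log2, and of all probes above the median of all values 48.3% were lower and 29.4% higher. RBM12 ranged from 8.09 to 8.72 in monocytes, against a median of 9.15 and a maximum of 9.76 in lymphocytes, without overlap (-0.84 ± 0.06 log2, limma, adjusted p = 8.87e-08). RBM14, a coactivator found in paraspeckles, differed by -0.68 ± 0.07 log2 and RBM26 by -0.60 ± 0.07 log2. RBM18 had levels of 8.80, 9.06, 8.97, 9.24 and 9.16 in monocytes, against 8.25, 8.45 and 8.58 as the lowest, median and highest lymphocyte arrays.

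RBM18 therefore stood above every lymphocyte array (0.59 ± 0.03 log2, limma, adjusted p = 6.8e-09). RBM42 had 9.91 to 10.21 in monocytes and 9.36 to 10.11 in lymphocytes (0.35 ± 0.08 log2). RBM23, a splicing regulator, had levels of 10.99, 10.84, 10.99, 10.95 and 10.27 in monocytes and 9.89 to 11.52 in lymphocytes. Its highest mean was in B cells. Monocytes were called higher than helper and cytotoxic T cells, but not higher than B cells. Against the mean of the lymphocyte types it was 0.31 ± 0.12 log2 higher, with an adjusted p of 0.034 (limma). Leaving out rank 1, 2, 3 or 4 raised that adjusted p to between 0.0516 and 0.115. RBM25 (-0.05 ± 0.06 log2) and RBM4 (-0.04 ± 0.06 log2), both regulators of alternative splicing, were not called, nor was RBM28 (0.01 ± 0.05 log2), a nucleolar protein.

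All 10 DHX genes, the DEAH box helicases spread over several of these roles, were lower in monocytes, with a median of -0.52 log2. Of the 14 DDX genes 7 were lower, 3 higher and 4 not called, with a median of -0.14 log2. Whether the DHX and DDX families differ was not tested.

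Among 8 helicases of other roles, 6 were lower in monocytes and 2 higher. DHX29, which helps ribosomes scan structured mRNA leaders, had levels of 8.45, 8.42, 8.75, 8.44 and 8.89 in monocytes, against 9.19, 9.39 and 10.18 as the lowest, median and highest lymphocyte arrays. The groups did not overlap (-0.94 ± 0.14 log2, limma, adjusted p = 3.54e-05). DHX30, which acts in mitochondrial RNA granules, differed by -0.68 ± 0.07 log2. The paralogous helicases DDX17 and DDX5, which act in splicing and as transcriptional coregulators, were lower by 0.39 ± 0.08 and by 0.34 ± 0.08 log2.

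DDX5 had levels of 13.11 to 13.74 in monocytes and 13.51 to 14.08 in lymphocytes, and its sign turned with all 20 arrays (0.08 log2). DDX19B (0.21 ± 0.07 log2), a helicase of mRNA export whose probe may not separate it from its paralog DDX19A, and DDX59 (0.12 ± 0.05 log2) were higher. Of 6 helicases of ribosome biogenesis, 4 were lower, 0 higher and 2 not called. DHX37, which acts on the small ribosomal subunit, had 8.63 to 9.27 in monocytes and 8.98 to 10.13 in lymphocytes, and monocytes were lower by 0.66 ± 0.06 log2 (limma, adjusted p = 3.81e-07). DDX56 had the smallest range of cell type means among genes above the median value, with monocyte, helper T, cytotoxic T and B cell means of 8.44 ± 0.23, 8.35 ± 0.04, 8.43 ± 0.11 and 8.40 ± 0.11 (SD, n = 5, 5, 4 and 4).

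Of 4 helicases linked to the sensing of viral RNA, 2 were lower in monocytes and 2 not called. DHX36, which unwinds G-quadruplexes, differed by -0.62 ± 0.08 log2 and DHX9, which binds double-stranded RNA, by -0.42 ± 0.09 log2. DDX60 (-0.06 ± 0.07 log2) and DDX60L (-0.02 ± 0.04 log2), both induced by interferon, were not called. Over 12 interferon-induced genes, 7 were higher in monocytes and 1 lower, beside 28.7% higher and 36.5% lower of all probes.

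Probes of 1 gene did not always move together. Of the 19 genes with several probes, 11 had all of them called in the same direction, 9 lower in monocytes (DHX15, DHX29, DHX30, DHX40, HNRNPD, RBM12, SNRPB, SNRPF and SNRPN) and 2 higher (HNRNPAB and RBM18). The other 8 were DHX9, HNRNPA2B1, HNRNPM, RBM10, RBM4, SF3B1, SRSF5 and U2AF2, in which some probes were called lower and the rest not called. No gene had probes called in opposite directions.

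The spread was widest for SF3B1. Its brightest probe differed by -1.33 ± 0.15 log2, while the next, with means of 9.78 in monocytes and 9.77 in lymphocytes, differed by 0.01 ± 0.07 log2 and the third, with means of 8.16 in monocytes and 8.07 in lymphocytes, by 0.09 ± 0.05 log2. HNRNPA2B1 had 1 probe at -1.20 ± 0.08 log2 and 3 others between -0.03 and 0.07 log2, whose monocyte means ran from 9.13 to 10.49. HNRNPM had 2 probes at -0.72 ± 0.07 and -0.59 ± 0.12 log2 and 2 others at 0.02 ± 0.05 and 0.00 ± 0.06 log2. Taking the mean over all probes of a gene gave -0.41 log2 for SF3B1 and -0.29 log2 for HNRNPA2B1, both still called (limma, adjusted p = 0.000346 and 0.00046), and -0.07 log2 for RBM10, no longer called (adjusted p = 0.141). Which transcripts each probe reads in the macaque was not tested.

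**Figure D3:**
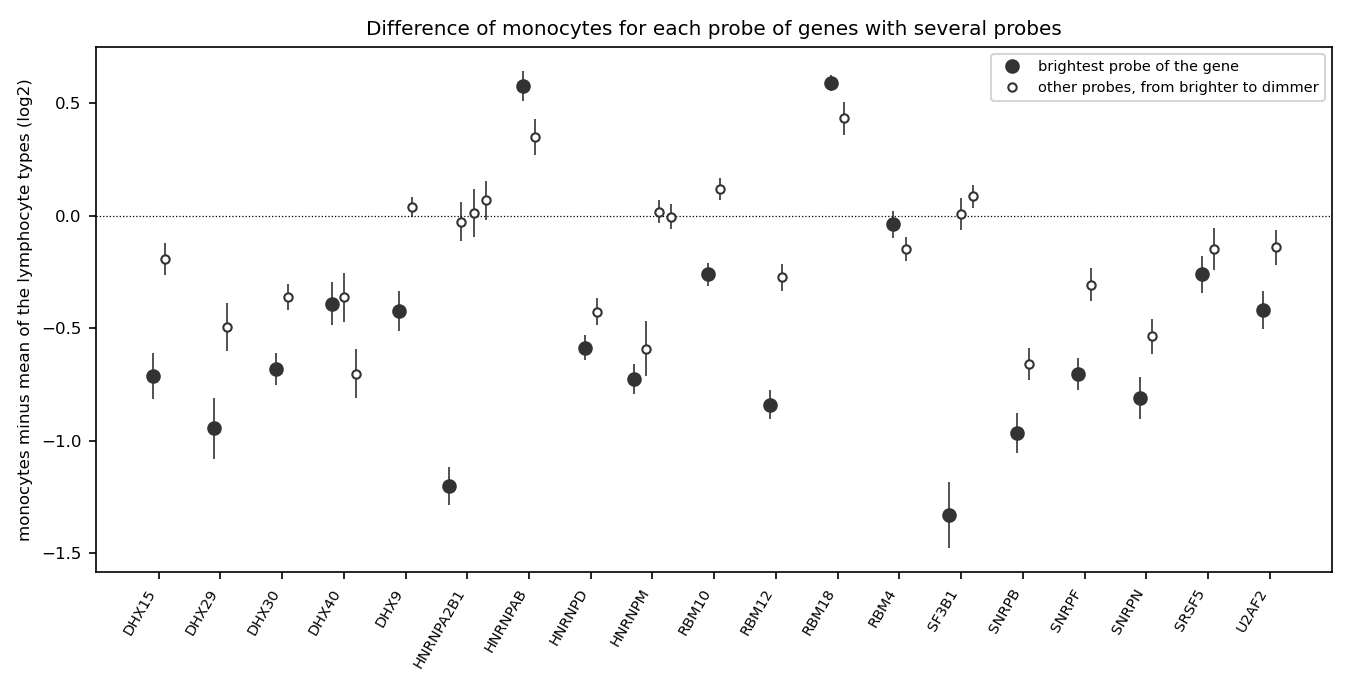
Difference in log2 level of monocytes minus the mean of the 3 lymphocyte types (vertical axis) for each probe of the 19 genes with several probes (horizontal axis). Filled points are the brightest probe of a gene, open points the others from brighter to dimmer, and bars are standard errors. The 3 probes of SF3B1 spread from -1.33 to 0.09, and the 2 of DHX29 from -0.94 to -0.49.

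Over the 107 probes as a set, more were called lower than higher in monocytes against each lymphocyte type. Single genes did not always follow the set. In cytotoxic T cells minus monocytes 2 of 7 SR proteins were called, and in helper T cells minus monocytes 0 of 2 U2AF genes. In helper T cells minus monocytes, 69 of the 107 probes were called, 59 higher in helper T cells and 10 lower, beside 61.5% of all probes, 34% higher and 27.5% lower. In cytotoxic T cells minus monocytes, 65 were called, 55 higher and 10 lower, beside 59.3%, 32.8% and 26.5%. In monocytes minus B cells, 72 were called, 9 higher in monocytes and 63 lower, beside 53.6%, 22.8% and 30.8%. These comparisons share the monocyte arrays. With all 20 arrays the 3 counts were 33 (30.8%, beside 35.5% of all probes in that fit), 18 (16.8%, beside 32.3%) and 22 (20.6%, beside 28.6%).

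Helper and cytotoxic T cells could hardly be separated. Of the 107 probes, 0 were called by limma in helper minus cytotoxic T cells, beside 2.64% of all probes (1.2% higher in helper T cells and 1.44% lower), and 4 (3.74%) had an unadjusted p under 0.05, beside 12.1%. DDX5 had the largest difference, with levels of 13.87, 14.00, 13.93, 13.95 and 13.92 in helper T cells, against 13.60, 13.64, 13.64 and 13.61 in cytotoxic T cells. Although those groups did not overlap, the difference of 0.28 ± 0.10 log2 had an adjusted p of 0.213 in the fit that pools the spread of all 4 types. With only the 9 arrays of those 2 types in the fit, DDX5 was called (0.31 log2, adjusted p = 0.0125), as was SRSF6 (0.20 log2, adjusted p = 0.0483). Those 2 calls of 107 (1.87%) stood beside 6.38% of all probes called in that fit. DHX37 had the smallest adjusted p of the main comparison, 0.104, at 0.26 ± 0.07 log2, and without the rank 1 animal it was called at 0.33 log2 (adjusted p = 0.049).

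T cells and B cells differed at a smaller set of genes. In helper T cells minus B cells, 16 of the 107 probes were called, 5 higher in helper T cells and 11 lower, beside 25.2% of all probes, 13.3% higher and 11.9% lower. In cytotoxic T cells minus B cells, 17 were called, 5 higher and 12 lower, beside 24.9%, 12.8% and 12.1%. The pair shares the B cell arrays. The 6 T cell markers averaged 11.06 to 11.97 in the T cell arrays, 8.29 to 9.01 in the B cell arrays and 7.76 to 7.81 in monocytes, and their part in the T and B cell results was not tested. With all 20 arrays, 0 and 1 probes were called, beside 9.19% and 6.33% of all probes.

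The largest differences were lower in T cells. RBM23 had levels of 10.41, 10.17, 10.28, 10.29 and 10.05 in helper T cells and 10.01, 9.89, 10.30 and 10.02 in cytotoxic T cells, against 11.41, 11.52, 10.77 and 10.92 in B cells. Both kinds of T cell lay wholly below B cells, by 0.94 ± 0.15 log2 in helper T cells (limma, adjusted p = 0.000391) and by 1.10 ± 0.16 log2 in cytotoxic T cells (adjusted p = 0.000138). RBM15, an adaptor of the complex that methylates adenosine in mRNA, had levels of 9.81, 9.97, 9.27, 9.74 and 9.22 in helper T cells and 9.89, 10.10, 9.45 and 9.11 in cytotoxic T cells, against 10.77, 11.04, 10.15 and 9.87 in B cells. The ranges overlapped, and the difference was -0.89 ± 0.09 log2 in helper T cells (limma, adjusted p = 8.61e-06) and -0.82 ± 0.09 log2 in cytotoxic T cells (adjusted p = 2.27e-05). RBM15 means of monocytes, helper and cytotoxic T cells were 9.60 ± 0.34, 9.60 ± 0.34 and 9.64 ± 0.44, against 10.46 ± 0.54 for B cells (SD).

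U2AF2 had levels of 11.01, 10.54, 11.16, 10.91 and 11.13 in helper T cells and 10.87, 10.59, 11.41 and 11.24 in cytotoxic T cells, against 11.82, 11.31, 11.60 and 11.51 in B cells. Helper T cells lay below all B cell arrays and cytotoxic T cells overlapped them (-0.61 ± 0.11 and -0.53 ± 0.11 log2). SRSF6 had levels of 13.55, 13.55, 13.19, 13.68 and 13.11 in helper T cells and 13.40, 13.36, 12.95 and 12.88 in cytotoxic T cells, against 13.95, 13.92, 13.54 and 13.98 in B cells. It differed by -0.44 ± 0.15 log2 in helper T cells (limma, adjusted p = 0.0396), a call lost without rank 1, 2 or 5 (adjusted p up to 0.213), and by -0.70 ± 0.15 log2 in cytotoxic T cells (adjusted p = 0.00335). The monocyte mean of SRSF6, 12.92 ± 0.17 (SD, n = 5), was the lowest of the 4 types.

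DHX37 was lower in T cells by 0.27 ± 0.07 log2 in helper and by 0.52 ± 0.08 log2 in cytotoxic T cells. LSM10 (-0.36 ± 0.11 and -0.32 ± 0.11 log2) and U2AF1L4 (-0.20 ± 0.06 and -0.21 ± 0.06 log2) were lower in helper and in cytotoxic T cells than in B cells. RBM22 was called lower in helper T cells only (-0.41 ± 0.09 log2) and HNRNPDL in cytotoxic T cells only (-0.39 ± 0.13 log2), and neither gene was called between the T cell types. Leaving out rank 1 ended both of these calls (limma, adjusted p = 0.0605 and 0.147), and leaving out rank 3 or 5 ended that of LSM10 in helper T cells (adjusted p = 0.087 without rank 3). The other probe of SNRPB and 2 and 3 further probes of HNRNPA2B1 made up the rest of the lower calls in helper and cytotoxic T cells.

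**Figure D4:**
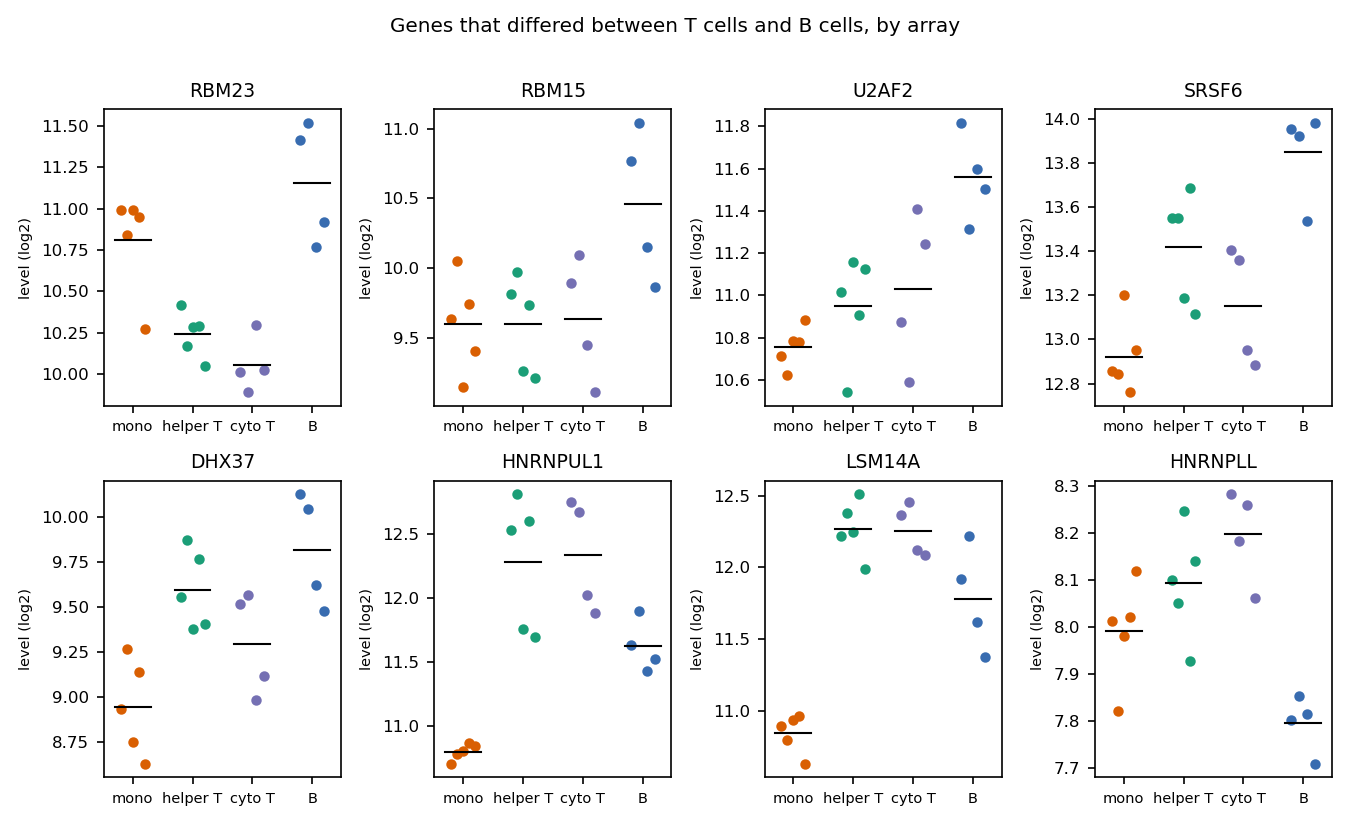
Level (log2, vertical axis) in each of the 18 arrays for 8 genes that differed between T cells and B cells, by cell type. Each point is 1 array, moved sideways for legibility, and each line is the mean of a type. RBM23, RBM15, U2AF2, SRSF6 and DHX37 have their highest mean in B cells, at 11.16, 10.46, 11.56, 13.85 and 9.82, and HNRNPLL has its lowest there, at 7.79.

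HNRNPUL1, LSM14A, HNRNPLL, RBM14 and RBM42 were higher in helper T cells than in B cells. HNRNPUL1 had levels of 12.53, 12.81, 11.76, 12.60 and 11.70 in helper T cells and 12.75, 12.67, 12.03 and 11.88 in cytotoxic T cells, against 11.63, 11.90, 11.43 and 11.53 in B cells. It differed by 0.61 ± 0.17 log2 in helper T cells (limma, adjusted p = 0.0173) and 0.71 ± 0.17 log2 in cytotoxic T cells (adjusted p = 0.00777), and both calls were lost without the rank 1 animal (adjusted p = 0.0924 and 0.0771), the helper T cell call also without rank 2 (0.0851). Since monocytes averaged 10.80 ± 0.06 (SD), HNRNPUL1 was ordered as T cells, B cells and monocytes, with helper and cytotoxic T cells not separable. LSM14A had levels of 12.22, 12.38, 12.25, 12.51 and 11.99 in helper T cells and 12.36, 12.46, 12.12 and 12.09 in cytotoxic T cells, against 11.92, 12.22, 11.62 and 11.38 in B cells.

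LSM14A overlapped between T and B cells but was higher in T cells by 0.44 ± 0.10 log2 in helper (limma, adjusted p = 0.00367) and 0.47 ± 0.10 log2 in cytotoxic T cells (adjusted p = 0.00267). HNRNPLL, which in mouse and human T cells directs the CD45 splicing of memory cells, had levels of 8.10, 8.05, 8.25, 7.93 and 8.14 in helper T cells and 8.28, 8.18, 8.26 and 8.06 in cytotoxic T cells, against 7.80, 7.85, 7.82 and 7.71 in B cells. Neither T cell type overlapped B cells (0.32 ± 0.07 log2, adjusted p = 0.0058, and 0.40 ± 0.07 log2, adjusted p = 0.00127, limma), though all its levels were under the median of the array. RBM14 differed by 0.35 ± 0.10 log2 in helper and 0.30 ± 0.10 log2 in cytotoxic T cells, RBM42 by 0.30 ± 0.10 log2 in helper T cells and RBM43 by 0.18 ± 0.06 log2 in cytotoxic T cells, and each of these 4 calls was lost under at least 1 left-out animal.

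The animals differed as well. An F test over the 5 animals in the same fit, added after the data were seen, called 52 of the 107 probes (48.6%) and 40 of the 82 genes, beside 33.5% of all probes. Every cell type of an animal came from 1 blood sample, so the test cannot tell an animal from its sample. Without the rank 2 animal the count was 32 (29.9%, beside 23.6% of all probes), and with all 20 arrays it was 15 (14%, beside 13.9%). HNRNPC, which binds uridine tracts and protects against the use of cryptic exons, had levels of 9.16, 9.85, 9.68, 9.26 and 8.49 in monocytes of ranks 1 to 5 and of 10.16, 10.83, 10.57, 9.96 and 8.29 in helper T cells. The rank 5 animal was lowest in all 4 types, with 8.47 in its cytotoxic T cells and 8.34 in its B cells. Its mean over monocytes and helper T cells was 8.39, while the other animals had 9.61 to 10.34. Over the 4 types the rank 5 levels lay between 8.29 and 8.49, while no kept array of another animal read below 9.16. The left-out cytotoxic T cell and B cell arrays of rank 4 read 8.57 and 8.74.

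AQR varied more between animals than between cell types. Its mean over monocytes and helper T cells was 9.96, 9.87, 9.43, 9.84 and 9.30 in ranks 1 to 5, a range of 0.67 log2, against a range of 0.19 log2 over cell types. HNRNPA2B1 (12.09, 11.79, 12.99, 11.86 and 12.65), RBM14 (9.11, 9.37, 10.04, 9.32 and 9.85) and DDX17 (9.81, 9.86, 10.47, 10.13 and 10.72) were higher in ranks 3 and 5 than in ranks 1, 2 and 4, while AQR and RBM15 (9.72, 10.01, 9.21, 9.74 and 9.31) were lower in those same 2 animals. PRPF31, flat across types, was lowest in rank 2 (8.70, against 8.99 to 9.28 in the others).

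**Figure D5:**
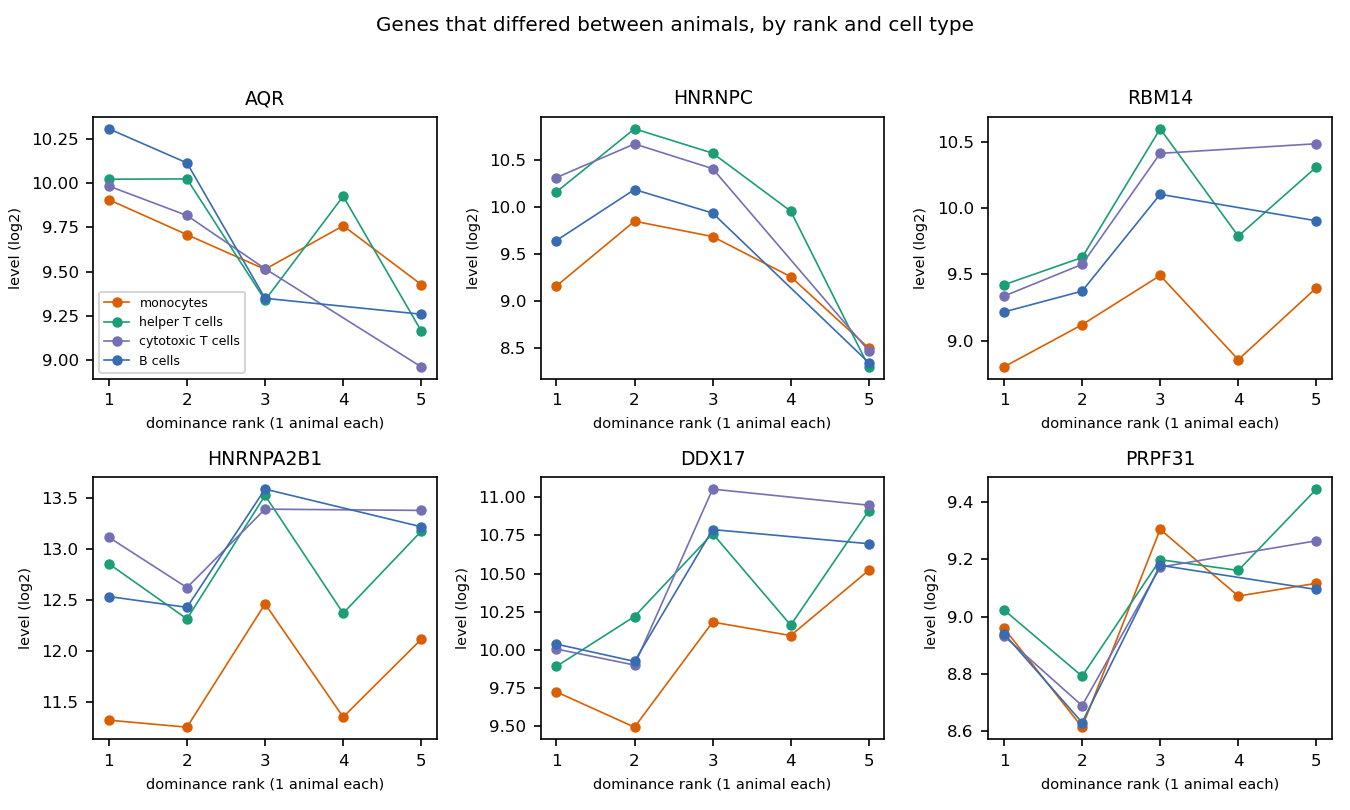
Level (log2, vertical axis) against dominance rank (horizontal axis, 1 animal each) for 6 genes that differed between animals, with a coloured line for each cell type. The cytotoxic T cell and B cell lines have no point at rank 4. The lines of a gene mostly run in parallel, except that those of HNRNPC converge at rank 5, where all 4 types read 8.29 to 8.49.

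No splicing or helicase probe had a slope on rank that passed adjustment in any cell type (limma), beside 0% of all probes in each. At an unadjusted p under 0.05 there were 3 of 107 in helper T cells (2.8%, beside 5.57% of all probes), 21 in cytotoxic T cells (19.6%, beside 12.6%), 6 in monocytes (5.61%, beside 6.45%) and 13 in B cells (12.1%, beside 9.86%). The smallest p was that of AQR in cytotoxic T cells, which fell by 0.26 ± 0.03 log2 per rank step over 4 arrays (limma, unadjusted p = 0.000615, adjusted p = 0.34). In the other types the smallest p belonged to DHX16 in helper T cells (0.16 ± 0.05 log2 per step), DDX17 in monocytes (0.22 ± 0.06) and SNRPF in B cells (-0.22 ± 0.05). A test of whether slopes differ between cell types called 0 of 107 after adjustment, beside 0.0274% of all probes, and 7 (6.54%) at an unadjusted p under 0.05, beside 9.49%. HNRNPC had the smallest p of that test (limma F test, unadjusted p = 0.00534, adjusted p = 0.418).

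Other genes of the same machinery, named from general knowledge and outside the symbol rule, were also more often lower than higher in monocytes. Of 106 further splicing genes 59 were measured, and 38 were lower in monocytes, 10 higher and 11 not called, with a median of -0.27 log2. Over all probes 36.5% were lower and 28.7% higher, and over those above the median of all values 48.3% and 29.4%. The kinase SRPK2, which phosphorylates SR proteins (-1.40 ± 0.10 log2), BCLAF1 (-1.40 ± 0.12 log2), FNBP4 (-1.40 ± 0.10 log2) and the splicing regulator MBNL1 (-1.36 ± 0.13 log2) had the largest differences. MBNL1 means were 9.51 ± 0.42 for monocytes, against 11.37 ± 0.12 for helper T cells, 11.30 ± 0.17 for cytotoxic T cells and 9.95 ± 0.11 for B cells (SD). QKI, an RNA-binding regulator of splicing (0.64 ± 0.06 log2), CWC25 (0.47 ± 0.10 log2), BUD31 (0.46 ± 0.10 log2) and RBMS1 (0.45 ± 0.12 log2) were higher.

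Of 21 further RNA helicases 9 were measured, and 5 were lower in monocytes, 2 higher and 2 not called, beside 36.5% lower and 28.7% higher of all probes. MOV10, a helicase that restricts retroelements, differed by -0.82 ± 0.06 log2 and IFIH1, the sensor of long double-stranded RNA, by -0.66 ± 0.14 log2. IFIH1 was the interferon-induced gene called lower in the list above. ZNFX1, an antiviral helicase, was higher by 1.34 ± 0.14 log2, with levels of 11.07, 11.17, 9.34, 10.94 and 9.87 in monocytes of ranks 1 to 5, against means of 9.24 ± 0.40 for helper T cells, 8.96 ± 0.24 for cytotoxic T cells and 9.09 ± 0.43 for B cells (SD).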

How the data were processed

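The authors deposited log-scale values for 7303 probes on 20 Illumina arrays, treated here as log2. Per the submitters' processing notes the R package lumi was used. Not given in the sources used here are its version, background correction, transformation and probe filter. Both deposited tables held identical values, between 7.50 and 14.77, and all arrays shared 1 distribution (sorted values differed by at most 0.000913), although 1 table is named as not normalized. Nothing was renormalized.

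Probes were named by the platform annotation (6055 with 1 symbol, 1 with several, 1247 with none), and RefSeq's macaque gene table holds 80 of the 82 symbols chosen. Arrays were grouped by their labels. The animal code in the titles ties the arrays of a rank to 1 animal, and deviations from type means correlated at a median of 0.478 within animals (0.238 to 0.809 over 25 pairs) and -0.248 between animals and types, so the animal entered the fit as a block.

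All probes were fitted on 18 arrays with limma 3.58.1 in R 4.3.3 (lmFit, contrasts.fit, eBayes) for cell type and animal, with Benjamini-Hochberg adjustment within each contrast and a threshold of 0.05. Slopes on rank were fitted within each type. On simulated data for monocytes minus the lymphocyte mean, over 7303 probes, the fit recovered 84% of 100 changes of 0.5 log2 and 98% of 100 of 1 log2, with 8 false among 190 calls. The simulation drew independent noise from the fitted model and gave no other probe a cell type effect. The real contrast called 65.2% of all probes, so these rates need not hold for it.

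Genes were named by rule: the 6 largest called differences per direction and contrast, the 8 smallest p of the F test, the 6 smallest ranges of type means above the median level, the brightest of each family, genes whose probes disagreed, the 3 smallest p on rank per type, and 4 per direction in the other lists. Remaining genes are named as members of a role. The genes, roles and lists were chosen with earlier results of these data known. The F test over animals and the choice of its examples were added after seeing the data. Alternatives were all 20 arrays, no block, a random block, trend and robust variance, scaling on the brighter probes, brighter probes only, the 2 types alone, the mean over probes and leaving out each animal.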

Additional observations from a re-analysis of the deposited data

Results flagged for a closer look

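In 7 of 224 groups of 4 or 5 arrays, tested for the named genes and for the mean of each role, 1 array stood far from the others of its cell type. Chance flags about 1 in 20 groups, so this number is under that rate. RBM23 read 10.27 in the monocytes of rank 5, with the nearest other monocyte array at 10.84. HNRNPD read 12.67 in the monocytes of rank 5 (nearest 12.54), and SF3B6 read 12.03 in the monocytes of rank 4 (nearest 11.87). DDX56 read 8.43 in the helper T cells of rank 5 (nearest 8.34). RBM12 read 9.76 in the cytotoxic T cells of rank 2 (nearest 9.15). In B cells, RBM42 read 9.82 in rank 1 (nearest 9.41) and SRSF6 read 13.54 in rank 3 (nearest 13.92).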

How the results depend on the processing

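The 2 left-out arrays moved the counts most. With all 20 arrays limma called 33 probes in helper T cells minus monocytes (30.8%, beside 35.5% of all probes). It called 0 in helper T cells minus B cells (beside 9.19%) and 18 in cytotoxic T cells minus monocytes (16.8%, beside 32.3%). Cytotoxic T cells minus B cells had 1 (0.935%, beside 6.33%) and monocytes minus B cells 22 (20.6%, beside 28.6%). There were 35 in monocytes minus the lymphocyte mean, 25 over cell types (23.4%, beside 37.3%) and 15 over animals (14%, beside 13.9%). The whole array lost calls as well: in monocytes minus the lymphocyte mean that fit called 32.7% of the splicing and helicase probes and 38.7% of all probes, against 72% and 65.2% without these arrays. In that fit SRSF6 (0.34 log2) and RBM22 (0.39 log2) changed sign in helper T cells minus B cells, as did DDX41 (-0.068 log2) and DDX5 (0.080 log2) in monocytes minus the lymphocyte mean. Without the replicate block, which pairs arrays of 1 animal, helper T cells minus B cells had 8 calls (7.48%, beside 15.9% of all probes). Cytotoxic T cells minus monocytes had 43 (40.2%, beside 49.4%) and cytotoxic T cells minus B cells 5 (4.67%, beside 15.2%). Over cell types there were 50 (46.7%, beside 55%), and in monocytes minus the lymphocyte mean 54.2% were called, beside 56.9%. With only the arrays of the 2 types, helper minus cytotoxic T cells had 2 calls (1.87%, beside 6.38% of all probes). Leaving out 1 animal gave 66 to 75 calls in monocytes minus the lymphocyte mean (61.7 to 70.1%, beside 59.4 to 63.3% of all probes). Helper T cells minus monocytes had 65 to 71 (60.7 to 66.4%, beside 56 to 58.3%). Cytotoxic T cells minus monocytes had 53 to 60 (49.5 to 56.1%, beside 51.5 to 58.5%). Monocytes minus B cells had 57 to 71 (53.3 to 66.4%, beside 44.6 to 52.7%). Over cell types there were 65 to 74 (60.7 to 69.2%, beside 58.3 to 64.7%). Helper minus cytotoxic T cells had 0 to 1 (0 to 0.935%, beside 0.986 to 2.31%). Helper T cells minus B cells had 9 to 15 (8.41 to 14%, beside 19.1 to 23.9%), with 9 without rank 2. Cytotoxic T cells minus B cells had 11 to 19 (10.3 to 17.8%, beside 18.3 to 24.8%), with 11 without rank 2 or rank 5. Over animals there were 32 to 56 (29.9 to 52.3%, beside 23.6 to 35.1%), with 32 without rank 2. Scaling on the brighter probes moved the median difference of all probes in monocytes minus the lymphocyte mean to 0.04 log2 and that of the splicing and helicase probes to -0.21 log2, with 14 higher and 57 lower. Those 71 calls (66.4%) stood beside 69.4% of all probes called in that fit. No probe was called on rank under any alternative run. For the named genes, 105 values lost the call and 1 gained it, all with the sign kept. A further 4 changed sign where the main or the alternative fit made a call. Another 7, called in neither fit, changed sign by at least 1 standard error. The other 658 kept their call status, and either kept their sign or, if uncalled, changed it by less than 1 standard error. The cause of these changes was not tested. Signal over background could not be set, since detection values were not used here.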
